A study of Mus musculus with 6 samples.

Results

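The genes described here were 38 glutamate receptor and postsynaptic scaffold genes of the mouse hippocampus, out of 41386 genes in the deposited table. They were found by gene name. Grin2a had no name in the table and was taken as the row whose KEGG text begins with Grin2a. By role they were 4 AMPA receptor subunits, 3 auxiliary subunits of AMPA receptors, 6 NMDA receptor subunits, 5 kainate receptor subunits, 1 delta receptor subunit, 6 metabotropic receptors, 4 MAGUK scaffolds, 4 SAPAP scaffolds, 3 Shank scaffolds and 2 Homer scaffolds. Their summed counts held 0.973% to 1.01% of the counts of a sham library.

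Gene expression was measured by RNA-seq in 6 libraries of hippocampal RNA, 3 from sham-operated and 3 from ischemia/reperfusion (I/R) mice, all C57BL/6 and aged 56 days. In the I/R group a filament closed the middle cerebral artery for 1.5 h (middle cerebral artery occlusion, MCAO), and blood flow was then restored for 24 h. The sham group went through the same surgery without the filament. Surgery was done under isoflurane anesthesia, and the study names no other agent or allele for these mice. Per the study's methods the mice were male and of the substrain C57BL/6J, the hippocampi came from the side of the occlusion, and each library pooled 3 hippocampi. Replicates are therefore pools and not single animals, and they hold cells of every type in the tissue.

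Glutamate is the main excitatory transmitter of the brain. AMPA receptors carry the fast current at the synapse, NMDA receptors admit calcium when the membrane is already depolarized, kainate receptors act on both sides of the synapse, and metabotropic receptors signal through G proteins. On the postsynaptic side the receptors are held in the postsynaptic density by layers of scaffolds. MAGUK proteins bind the receptors, SAPAP proteins bind the MAGUKs, Shank proteins bind the SAPAPs, and Homer proteins join Shank to the metabotropic receptors. In the hippocampus many, but not all, of these proteins are abundant in pyramidal and granule neurons. Excess glutamate acting on NMDA receptors is a textbook source of neuronal injury in ischemia.

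Most of the 38 genes were lower in I/R. The test was edgeR's quasi-likelihood test over 18569 genes, and a gene was called when its p, adjusted by the Benjamini-Hochberg method, was under 0.05 and its fold change was over 1.2. All 38 genes were tested, 34 were called lower, 1 (Dlg1) was called higher and 3 (Grik1, Grik3 and Grm8) were not called. Over all genes tested, 19.9% were called lower and 21.8% higher. In bulk tissue, fewer neurons and less RNA per neuron cannot be told apart. The median log2 fold change was -0.85 over the 38 genes and 0.03 over all genes tested.

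Levels of a gene are given as CPM, its counts relative to a library size that TMM (the trimmed mean of M-values) adjusts for composition. The level of the 34 genes called lower was 34.5% to 69.8% of the sham mean in I/R, with a median of 50.3%. Of these genes, 17 fell by more than 2-fold, against 4.67% of all genes tested. All 3 I/R libraries lay below all 3 sham libraries for 35 of the 38 genes, against 28.1% of all genes tested, and the groups overlapped for Grik1 and Grik3. The lowest count of any of these genes in any library was 310, so none was near the floor of 3 counts.

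The 3 I/R libraries were not equally far from sham. I/R replicate 1 was the lowest of the I/R libraries for 32 of the 34 genes called lower, and I/R replicate 3 was the highest for 27. The 38 genes together stood at 34.3%, 52.4% and 57.0% of their sham mean in I/R replicates 1, 2 and 3. The summed level of 12 pan-neuronal markers stood at 31.4%, 52.9% and 58.8% in the same libraries. Without I/R replicate 1, 35 of the 38 genes were called lower and 1 higher, with a median log2 fold change of -0.71.

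**Figure D1:**
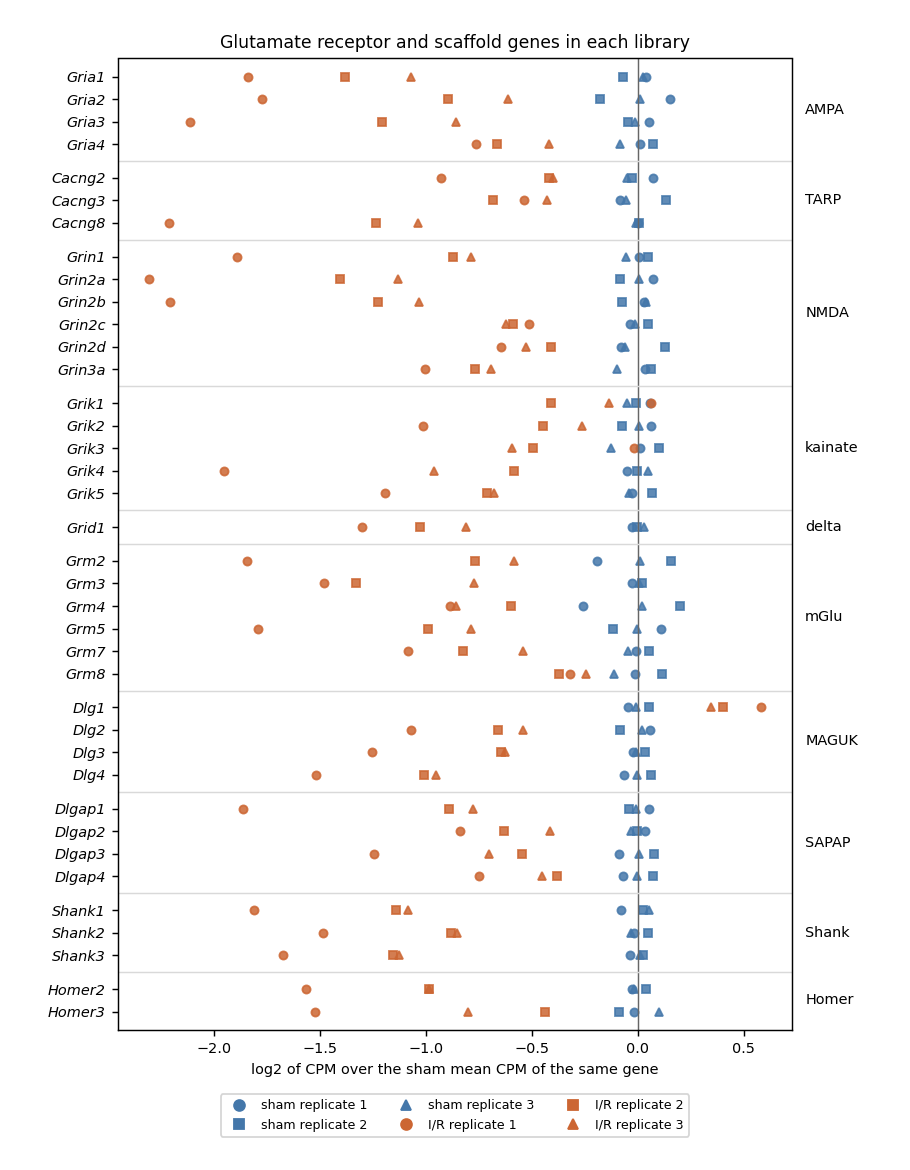
Level of each of the 38 genes in each library, as the log2 of its CPM (counts scaled by TMM library size) over the mean CPM of the same gene in sham. Each point is 1 library. The I/R libraries lie to the left of the sham libraries for 35 genes and to the right for Dlg1, and I/R replicate 1 is the leftmost point for 32 genes.

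Start-site sequence was at hand in RefSeq (GRCm38.p6) for 26 of the 38 genes, with 39 windows of the 250 bases before a start site. Stretches of 200 bases that end at the base before the start are shown for 4 genes, which include an AMPA, an NMDA and a Shank gene that fell and the 1 gene that rose. Capitals mark GGGCGG (a GC box) or GGACAGCG (the right part of the RE1 element that the repressor REST binds), read on either strand. The stretches of Gria2 (chr3:80802836-80803035) and Grin1 (chr2:25319188-25319387) are read from the minus strand, and those of Shank3 (chr15:89499408-89499607) and Dlg1 (chr16:31663735-31663934, the first of its 4 windows) from the plus strand.
Gria2: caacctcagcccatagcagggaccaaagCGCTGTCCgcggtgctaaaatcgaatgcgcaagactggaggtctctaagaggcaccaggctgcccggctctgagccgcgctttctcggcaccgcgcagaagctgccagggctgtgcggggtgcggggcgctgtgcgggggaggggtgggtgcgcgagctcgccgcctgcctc
Grin1: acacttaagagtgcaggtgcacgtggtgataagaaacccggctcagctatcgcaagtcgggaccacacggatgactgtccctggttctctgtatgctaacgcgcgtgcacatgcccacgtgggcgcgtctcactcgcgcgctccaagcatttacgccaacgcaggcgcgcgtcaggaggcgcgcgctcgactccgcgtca
Shank3: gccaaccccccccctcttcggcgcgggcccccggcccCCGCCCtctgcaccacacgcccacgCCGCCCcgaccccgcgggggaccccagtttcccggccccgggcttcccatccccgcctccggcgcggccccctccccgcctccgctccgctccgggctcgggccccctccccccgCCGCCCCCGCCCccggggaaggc
Dlg1: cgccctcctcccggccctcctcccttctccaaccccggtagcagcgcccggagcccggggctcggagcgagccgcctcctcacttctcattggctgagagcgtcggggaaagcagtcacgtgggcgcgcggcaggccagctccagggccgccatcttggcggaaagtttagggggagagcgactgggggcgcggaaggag

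The Gria2 stretch held 1 match to GGACAGCG, on the opposite strand, and no GC box. That motif was in 1 of the 39 windows of the 38 genes and in 0.992% of all 32851 windows. The Shank3 stretch held 4 GC boxes, all on the opposite strand, and the last 2 touch. GC boxes were in 17 of the 39 windows, against 32.7% of all windows. The stretches of Grin1 and Dlg1 held neither motif, but Dlg1 did have a GC box elsewhere in its 4 windows of 250 bases. The cAMP response element TGACGTCA was in 0 of the 39 windows and in 1.55% of all windows, and the TATA box TATAAA was in 3 and in 12.4%. These matches describe letters only.

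All 4 AMPA receptor subunits fell. Gria1 (chr11:54823098-55145078 in the BALB/cJ assembly, as are all gene positions that follow), a subunit of most hippocampal AMPA receptors, stood at 1344, 1246 and 1332 CPM in sham replicates 1, 2 and 3 and at 365, 501 and 622 CPM in I/R replicates 1, 2 and 3. The groups were far apart, with the highest I/R library under the lowest sham library (log2 fold change -1.40, SE 0.20, adjusted p = 0.00161). Gria2 (chr3:77841429-77962358), the subunit that makes the channel nearly impermeable to calcium, stood at 1128, 897 and 1023 CPM in sham and 297, 547 and 664 CPM in I/R. It had the widest spread of the AMPA subunits in sham, and its I/R libraries were all lower (log2 fold change -1.02, SE 0.27, adjusted p = 0.0193). Gria3 (chrX:36121918-36394176) stood at 276, 257 and 263 CPM in sham and 61.4, 115 and 146 CPM in I/R (log2 fold change -1.30, SE 0.27, adjusted p = 0.00699). I/R replicate 1 of Gria3 stood at 23.1% of its sham mean, the lowest library of any AMPA subunit. Gria4, which is less abundant in pyramidal neurons, fell least, by 0.61 on the log2 scale (SE 0.11, adjusted p = 0.00363). The call of Gria2 was lost in 3 other fits, which include those without sham replicate 1 (adjusted p = 0.066) and without sham replicate 3 (adjusted p = 0.057). Its adjusted p ranged over 0.000288 to 0.0655 in 16 other fits. Here and below, these 16 leave out the scaling on pan-neuronal markers, which is given apart and on which Gria2 was at 0.03 (adjusted p = 0.893).

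The 3 transmembrane AMPA receptor regulatory proteins (TARPs) among the 38 genes fell. TARPs carry AMPA receptors to the membrane and slow their closing. Of the TARP genes outside the 38, Cacng4 (log2 fold change -0.80) and Cacng7 (-0.39) were called lower. Cacng5 (0.40, adjusted p = 0.199) was not called. Cacng8 (chr7:300609-326429), the TARP most typical of the hippocampus, stood at 146, 147 and 145 CPM in sham and 31.4, 61.9 and 71.1 CPM in I/R (log2 fold change -1.41, SE 0.26, adjusted p = 0.00422). The sham libraries were almost equal, and the I/R libraries stood at 21.5% to 48.8% of their mean. Cacng2 (chr15:75436852-75567531), or stargazin, stood at 75.3, 70.3 and 69.0 CPM in sham and 37.5, 53.6 and 54.2 CPM in I/R (log2 fold change -0.56, SE 0.14, adjusted p = 0.0155). Cacng3 fell by 0.55 on the log2 scale (SE 0.10, adjusted p = 0.00453). The smaller falls of Cacng2 and Cacng3 were not past the threshold with libraries scaled by their total count alone (adjusted p = 0.067 and 0.053, in ranges of 0.000335 to 0.119 and 6.69e-05 to 0.101 over the 16 other fits), and on the pan-neuronal scale they were at 0.54 and 0.63 (adjusted p = 0.0524 and 0.0705). An antisense gene overlaps Cacng2 and had counts equal to 3.01% of it, and whether counting used strand is not stated.

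All 6 NMDA receptor subunits among the 38 genes fell, and 3 of them by more than 2-fold. Grin1 (chr2:22381662-22411642), the glycine-binding subunit that every NMDA receptor needs, stood at 420.2, 432 and 403 CPM in sham and 113, 228 and 243 CPM in I/R (log2 fold change -1.10, SE 0.26, adjusted p = 0.0114). I/R replicate 1 stood at 26.9% of the sham mean, and the other I/R libraries were close to each other. Grin2a (chr16:6094349-6523676), the glutamate-binding subunit that dominates in the adult forebrain, stood at 435, 391 and 416 CPM in sham and 83.6, 156 and 189 CPM in I/R. It had the lowest fold change of the 38 genes (log2 fold change -1.53, SE 0.26, adjusted p = 0.00329). Grin2b (chr6:134390829-134870793), the subunit that dominates early in life and stays abundant in the forebrain, stood at 1009, 941 and 1017 CPM in sham and 214, 423 and 484 CPM in I/R (log2 fold change -1.40, SE 0.27, adjusted p = 0.00535). For Grin1, Grin2a and Grin2b alike, I/R replicate 1 was the lowest library and I/R replicate 3 the highest of the I/R group.

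The other NMDA subunits of the 38 genes fell less and with less spread between the I/R libraries. The log2 fold change was -0.57 ± 0.08 (SE) for Grin2c, -0.52 ± 0.11 for Grin2d and -0.81 ± 0.11 for Grin3a, with adjusted p of 0.00162, 0.00725 and 0.00129. Grin2c and Grin2d give receptors that need less depolarization, and Grin3a binds glycine and lowers calcium entry. For Grin2c, I/R replicate 1 was the highest I/R library and not the lowest, at 37.7, 35.8 and 34.9 CPM in replicates 1, 2 and 3 against 52.4, 55.6 and 53.4 CPM in sham.

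Of the 5 kainate receptor subunits, 3 fell and 2 were not called. Grik4 (chr9:39510834-39941570) and Grik5 (chr7:23051925-23115891) bind glutamate with high affinity and work only together with a subunit of the Grik1 to Grik3 class. Grik4 stood at 65.5, 67.7 and 70.2 CPM in sham and 17.5, 45.2 and 34.8 CPM in I/R (log2 fold change -1.06, SE 0.29, adjusted p = 0.0206). Grik5 stood at 261, 278 and 258 CPM in sham and 116, 162 and 166 CPM in I/R (log2 fold change -0.84, SE 0.14, adjusted p = 0.00315). I/R replicate 1 was again the lowest library of both genes. Of the channel-forming subunits, Grik2 fell by 0.54 on the log2 scale (SE 0.17, adjusted p = 0.0384), Grik1 had a log2 fold change of -0.15 ± 0.15 (SE, adjusted p = 0.463) and Grik3 of -0.34 ± 0.15 (SE, adjusted p = 0.108). In I/R replicate 1, Grik3 was at 98.9% of its sham mean, against 66.3% in the lowest I/R library. Without that library Grik3 was called lower at a log2 fold change of -0.55. The calls of Grik2 and Grik4 were lost without any 1 of the sham libraries. Adjusted p ranged over 0.00251 to 0.204 for Grik2 and 3e-05 to 0.0983 for Grik4 in the 16 other fits. On the pan-neuronal scale adjusted p was 0.0473 and 0.938, with fold changes of 0.55 and -0.02. Counting that scale, Grik4 lost its call in 6 fits.

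Grid1 (chr14:27282863-28041880), the delta subunit found in the forebrain, belongs to the ionotropic receptors by sequence but serves at the synapse as a partner of cerebellin and neurexin. It stood at 92.0, 93.5 and 95.4 CPM in sham and 37.99, 45.9 and 53.4 CPM in I/R. The I/R libraries stood at 40.6% to 57.1% of the sham mean, and of the 38 genes only Shank3 had a lower adjusted p (log2 fold change -1.03, SE 0.12, adjusted p = 0.000917).

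Of the 6 metabotropic receptors 5 fell. Grm5 (chr7:87487437-88024659) couples to calcium release and sits beside the postsynaptic density, and it stood at 356, 304 and 329 CPM in sham and 95.0, 166 and 191 CPM in I/R (log2 fold change -1.13, SE 0.23, adjusted p = 0.00675). Grm3 (chr5:6520073-6763150), which lowers cyclic AMP and is made by astrocytes as well as neurons, stood at 34.6, 35.7 and 35.4 CPM in sham and 12.6, 14.0 and 20.6 CPM in I/R (log2 fold change -1.16, SE 0.18, adjusted p = 0.00208). The sham libraries of Grm3 were almost equal, and its I/R replicates 1 and 2 were the lower ones. Grm2, of the same coupling as Grm3, fell by 0.97 on the log2 scale (SE 0.28, adjusted p = 0.0271). Of the receptors that mostly sit on presynaptic endings, Grm7 fell by 0.80 (adjusted p = 0.00311) and Grm4 by 0.78 (adjusted p = 0.00661). Grm8, of the same class, had a log2 fold change of -0.31 ± 0.13 (SE, adjusted p = 0.0936) and was not called, although its I/R libraries were all below its sham libraries. The call of Grm2 was lost without any 1 of the sham libraries, with adjusted p of 0.000114 to 0.118 over the 16 other fits and 0.819 on the pan-neuronal scale, where its fold change was 0.061.

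Among the MAGUK scaffolds 3 fell and 1 rose. Dlg4 (chr11:68171127-68200295) encodes PSD95, the main scaffold of the excitatory postsynaptic density. It stood at 862, 942 and 900.1 CPM in sham and 315, 447 and 465 CPM in I/R (log2 fold change -1.14, SE 0.17, adjusted p = 0.00178). I/R replicates 2 and 3 were close to each other, and replicate 1 was lower. Dlg3 (chrX:96007053-96059507), or SAP102, stood at 319, 332 and 323 CPM in sham and 136, 208 and 210.5 CPM in I/R (log2 fold change -0.81, SE 0.17, adjusted p = 0.00648). Dlg2, or PSD93, fell by 0.74 on the log2 scale (SE 0.14, adjusted p = 0.00526).

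Dlg1 (chr16:28445400-28653807), or SAP97, is the MAGUK that epithelia and many other cell types also make, where it sits at cell junctions. It stood at 103, 110.4 and 106 CPM in sham replicates 1, 2 and 3 and at 159, 141 and 136 CPM in I/R replicates 1, 2 and 3. All 3 I/R libraries were above all 3 sham libraries, and the highest was I/R replicate 1, the library in which the other MAGUKs were lowest. The rise was called (log2 fold change 0.45, SE 0.09, adjusted p = 0.00619), also in each of the 16 other fits, with adjusted p of 0.000157 to 0.0375. The summed level of 5 endothelial markers stood at 204%, 165% and 136% of sham in I/R replicates 1, 2 and 3, with 4 of the markers called higher and 1 (Slco1a4, -1.17) lower. That of 5 monocyte and macrophage markers stood at 2296%, 1041% and 1051%, and that of 6 microglial markers at 138%, 98.8% and 113%. The microglial list was mixed, with 3 markers called higher, 2 lower and 1 not called. All 3 lists were highest in I/R replicate 1, as was Dlg1. Among the I/R libraries, replicate 1 was also highest for the oligodendrocyte (90.4%), oligodendrocyte precursor (83.1%) and thalamus (141%) lists. The part of any of these cells in the rise of Dlg1 was not tested.

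The SAPAP and Shank scaffolds form the deeper layers of the postsynaptic density, and all of them fell. Dlgap1 (chr17:70067599-70924208) stood at 906, 848 and 868 CPM in sham and 239.7, 472 and 509.8 CPM in I/R (log2 fold change -1.10, SE 0.26, adjusted p = 0.0115). Dlgap3 (chr4:124390987-124459895) stood at 403, 451 and 430.2 CPM in sham and 181, 293 and 263 CPM in I/R (log2 fold change -0.80, SE 0.18, adjusted p = 0.00879). I/R replicate 1 was the lowest library of both genes, and for Dlgap3 replicate 2 was the highest of the I/R libraries. Dlgap2 and Dlgap4 fell less, by 0.62 (SE 0.11) and 0.52 (SE 0.12) on the log2 scale, with adjusted p of 0.00413 and 0.0106. A row without a name overlaps Dlgap2 on the same strand, and its counts were equal to 9.89% of those of Dlgap2.

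Shank1 (chr7:43660470-43710561) stood at 613, 659 and 671 CPM in sham and 185, 293 and 306 CPM in I/R (log2 fold change -1.31, SE 0.19, adjusted p = 0.00182). Shank3 (chr15:87335939-87397925), the family member whose loss causes Phelan-McDermid syndrome, stood at 383, 401 and 397 CPM in sham and 123, 177 and 180.5 CPM in I/R. It had the lowest adjusted p of the 38 genes (log2 fold change -1.30, SE 0.15, adjusted p = 0.000879). Shank2 fell by 1.05 on the log2 scale (SE 0.17, adjusted p = 0.00237), so all 3 Shank genes were lower by more than 2-fold.

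Both Homer scaffolds fell. Homer2 (chr7:81350173-81460585) stood at 128, 134 and 128 CPM in sham and 43.8, 65.6 and 65.7 CPM in I/R (log2 fold change -1.15, SE 0.15, adjusted p = 0.00129), with I/R replicates 2 and 3 almost equal. Homer3 (chr8:67898107-67909454) stood at 55.1, 52.3 and 59.6 CPM in sham and 19.3, 41.0 and 31.9 CPM in I/R (log2 fold change -0.86, SE 0.24, adjusted p = 0.0218), and its I/R libraries were spread more widely. The antisense gene Ddx49 overlaps Homer3 and had counts equal to 75.0% of it, so the value of Homer3 is uncertain, and its call was lost without any 1 of the sham libraries (adjusted p of 0.000351 to 0.0825 over the 16 other fits, and 0.453 on the pan-neuronal scale, where its fold change was 0.21).

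The level of a gene in sham was compared between genes by FPKM, which divides by gene length. The highest sham levels were those of Dlg4 (695 ± 26.3 FPKM, mean ± SD, n = 3), Gria1 (333 ± 16.0 FPKM), Dlgap1 (229.6 ± 9.21 FPKM), Gria2 (226 ± 27.3 FPKM) and Grin2b (177 ± 8.71 FPKM). Gria2 and Dlgap1 did not differ beyond their spread. The lowest were those of Grm8 (3.53 ± 0.257 FPKM) and Grik1 (3.92 ± 0.167 FPKM). The authors' FPKM used a gene length that was mostly shorter than the length listed in the table. With the listed length Dlg4, Gria1 and Dlgap1 stayed the first 3, while Grin2b, whose listed length is 23779 bases against 5127 behind its FPKM, moved from rank 5 to rank 16.

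Genes with a higher sham level had the lower fold changes. The median log2 fold change was -1.10 for the 19 genes with the higher sham FPKM and -0.62 for the other 19. Across the 38 genes Spearman's rho between sham FPKM and log2 fold change was -0.55, and -0.51 with the listed length; across all genes tested rho was -0.34. These genes share 6 libraries and are not independent. Against this order, Dlgap4 (115 FPKM in sham) fell by only 0.52, and Grm3 (10.6 FPKM) fell by 1.16.

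**Figure D2:**
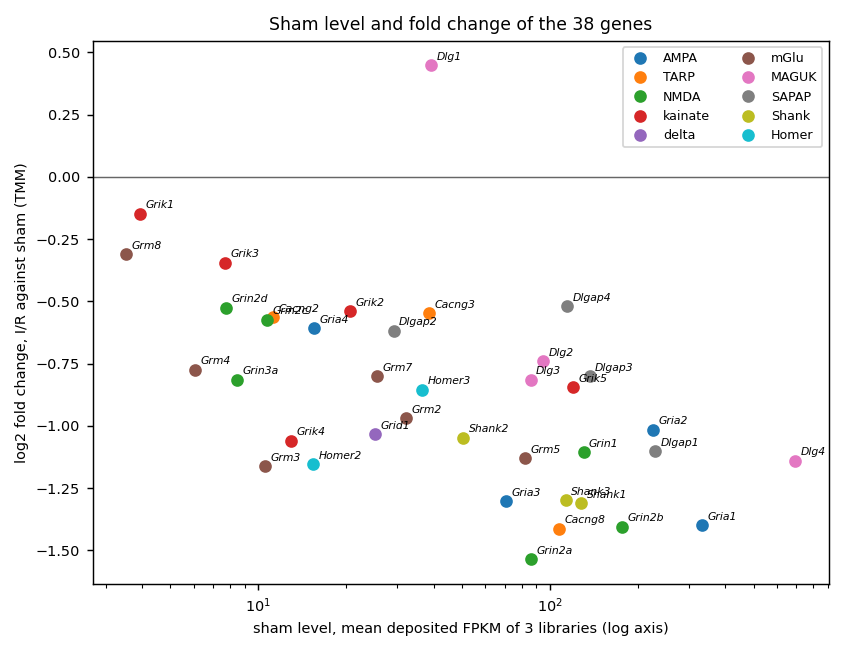
Mean deposited FPKM in the 3 sham libraries (horizontal, log axis) against the log2 fold change of I/R against sham (vertical) for the 38 genes, coloured by role. The fold changes run from 0.45 for Dlg1 to -1.53 for Grin2a, and genes with the higher sham level lie lower, with a median of -1.10 against -0.62.

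Ratios of 2 genes inside a library do not depend on how libraries are scaled, and 10 of them were computed from FPKM. The exact two-sided permutation test of 3 libraries against 3 cannot give a p under 0.1, and that smallest p becomes 0.167 after adjustment over the 10 ratios, so none of them can pass 0.05. In 6 of the 10 the groups did not overlap, and how often this holds for other pairs of genes was not computed. Dlg4/Dlg1 sets a gene called lower against the 1 gene called higher, so its fall follows from those calls. The ratio Dlg4/Dlg1 was 17.5, 17.9 and 17.8 in sham and 4.14, 6.67 and 7.19 in I/R, a difference of -1.60 on the log2 scale (exact permutation p = 0.1). The ratio Cacng8/Cacng2 was 9.11, 9.80 and 9.87 in sham and 3.93, 5.42 and 6.16 in I/R, a difference of -0.92 (exact permutation p = 0.1). Both ratios were lower in every I/R library than in any sham library.

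Within the NMDA receptor, Grin2a/Grin1 was 0.690, 0.603 and 0.689 in sham and 0.495, 0.457 and 0.519 in I/R, a difference of -0.43 (exact permutation p = 0.1). Grin2b/Grin1 differed by -0.30 and Grin2a/Grin2b by -0.13 (exact permutation p = 0.1 for each), so both Grin2a and Grin2b were lower relative to Grin1 in every I/R library. Within the AMPA receptor, Gria3/Gria2 differed by -0.30 without overlap (exact permutation p = 0.1). Gria1/Gria2 was 1.37, 1.60 and 1.50 in sham and 1.41, 1.05 and 1.08 in I/R, and these groups overlapped (difference -0.34, exact permutation p = 0.2). Gria4/Gria2 differed by 0.47 with overlap (exact permutation p = 0.3). The ratios Shank1/Shank3 and Grm5/Grm3 differed by -0.03 and 0.01, within a pooled SD of 0.07 and 0.25.

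**Figure D3:**
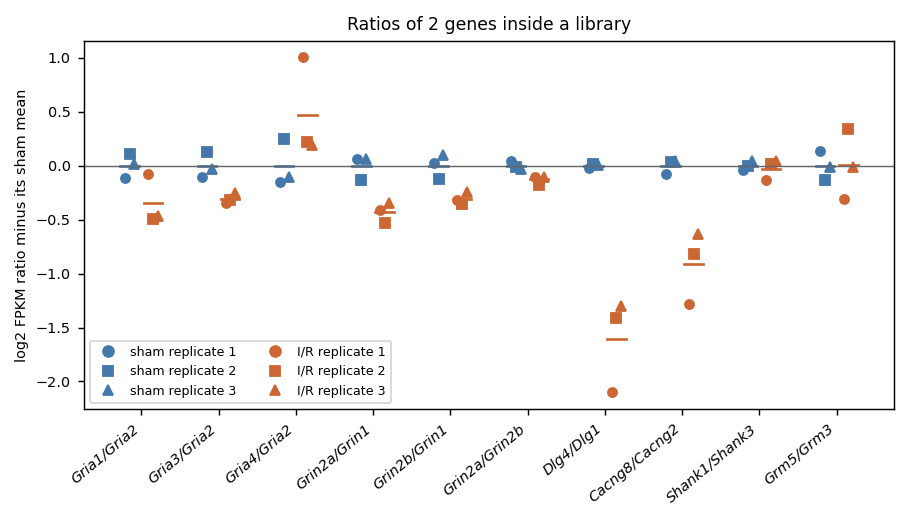
The 10 ratios of FPKM inside a library, as log2 minus the sham mean of that ratio. Each point is 1 library and each short line a group mean of 3 libraries. Dlg4/Dlg1 and Cacng8/Cacng2 lie furthest below 0 in I/R, at -1.60 and -0.92 on average, and Shank1/Shank3 and Grm5/Grm3 lie around 0.

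To set the 38 genes against the neuronal RNA of the same library, counts were also scaled by the summed counts of 12 pan-neuronal markers, none of which is among the 38. Snap25 (mean of 2210 CPM in sham, log2 fold change -1.30) and Syt1 (1739 CPM, -1.26) gave the most to that sum. Of the markers, 11 were called lower with TMM scaling and their median log2 fold change was -0.92. On the neuronal scale the median of the 38 genes was 0.24 and that of all genes tested was 1.196. The fold changes were negative for 14 of the 38 genes and positive for 24. Only Grin2a was called lower (-0.49, adjusted p = 0.0348), against 0.485% of all genes tested. Grik1, Grik2, Grik3, Grm8, Dlg1 and Dlgap4 were called higher, 6 of 38 against 72.0% of all genes tested. Dlg1 was again the highest of the 38 (1.65, adjusted p = 0.00182), but a change of 1 factor per library largely keeps the order of genes. The adjusted p of Grin2a and Dlg1 ranged over 3.47e-08 to 0.0178 and 0.000157 to 0.0375 in the other 16 fits.

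The neuronal scale placed the genes that fell most on the TMM scale near 0 or below it. It gave -0.31 for Gria1, -0.37 for Cacng8, -0.37 for Grin2b, -0.27 for Gria3, -0.23 for Shank1 and -0.19 for Shank3, and none of these was called. Gria2, Grin1, Grm5, Dlg4, Dlgap1, Shank2 and Homer2 lay between -0.07 and 0.05. The result depended on how the markers were combined. With the geometric mean of the 12 markers in place of their sum, 5 genes were called lower (Gria1, Cacng8, Grin2a, Grin2b and Shank1) and 2 higher (Grik1 and Dlg1). The shares of all genes called with the geometric mean were not computed, so these 2 counts have no background beside them.

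**Figure D4:**
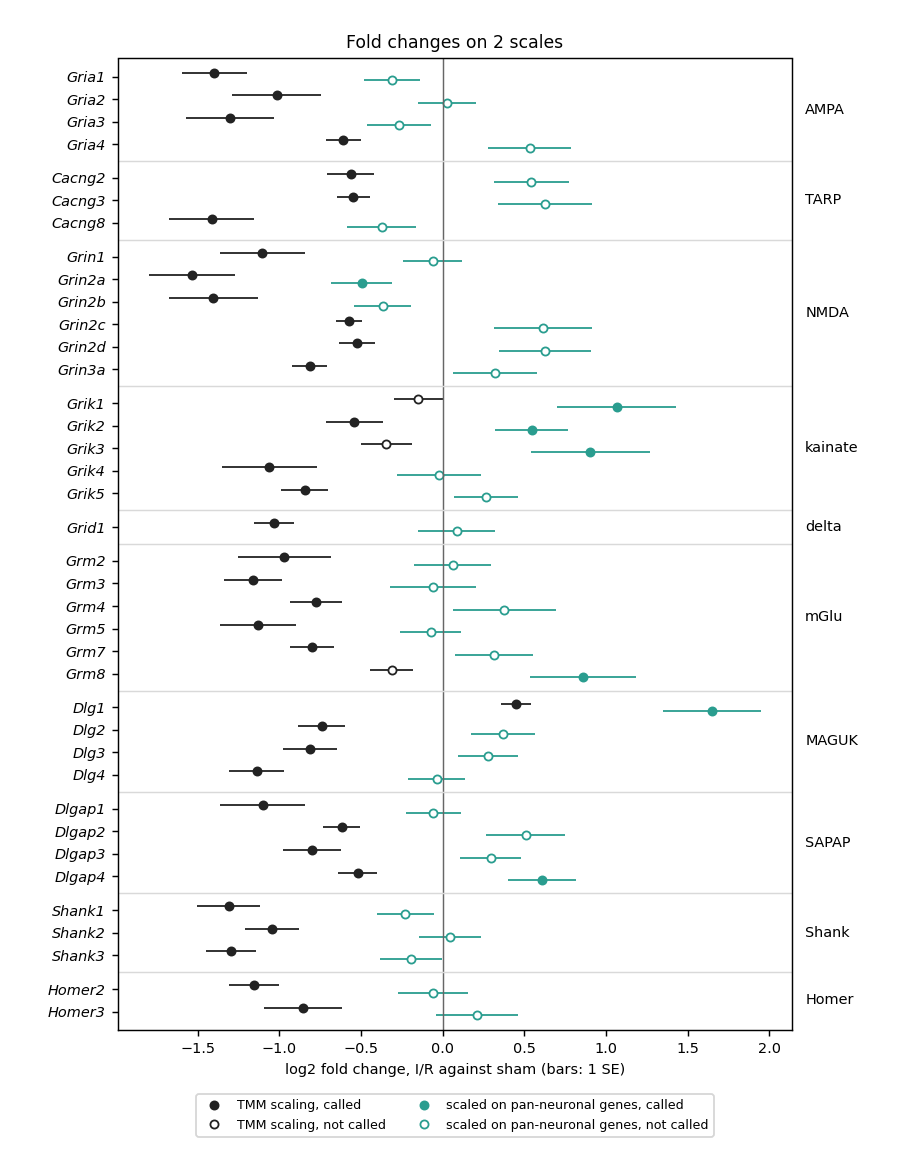
Log2 fold change of I/R against sham for the 38 genes, with libraries scaled by TMM (black) and by the summed counts of 12 pan-neuronal markers (green). Bars are 1 SE from edgeR and filled points are genes called by the rule used throughout (adjusted p below 0.05, fold change above 1.2). The median lies at -0.85 on the first scale and at 0.24 on the second, and Dlg1 is to the right of 0 on both.

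Markers of the neuron types of the hippocampus were present in all libraries, and most of them fell in I/R. Of 6 dentate granule cell markers 6 were called lower, with a median log2 fold change of -1.94, of 5 CA1 pyramidal cell markers 5 (-1.12) and of 5 CA3 pyramidal cell markers 3 (-1.14). Of 7 interneuron markers 4 were called lower, with a median of -0.29, and their summed level stood at 74.8% to 83.8% of sham in I/R. Gad2 (-0.12), Vip (0.10) and Npy (0.26) were the 3 that were not called. Of 7 astrocyte markers 5 were called lower and 1 (Aqp4, 0.52) higher, and their summed level, to which Slc1a2 gave the most, stood at 52.1% to 66.2% of sham. The summed level of 5 monocyte and macrophage markers was 8.13 to 10.9 CPM in sham and 103 to 227 CPM in I/R, with 4 of them called higher. The 8 choroid plexus markers summed to 41.3 CPM in sham replicate 1 and in I/R replicate 3, and to between 1613 and 4482 CPM in the other libraries. With that level as a covariate 34 of the 38 genes were still called lower and 1 higher. Of 6 striatal and 6 thalamic markers 1 of each list was called lower and 1 higher. The part of the other cell types in the falls of the 38 genes was not tested.

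**Figure D5:**
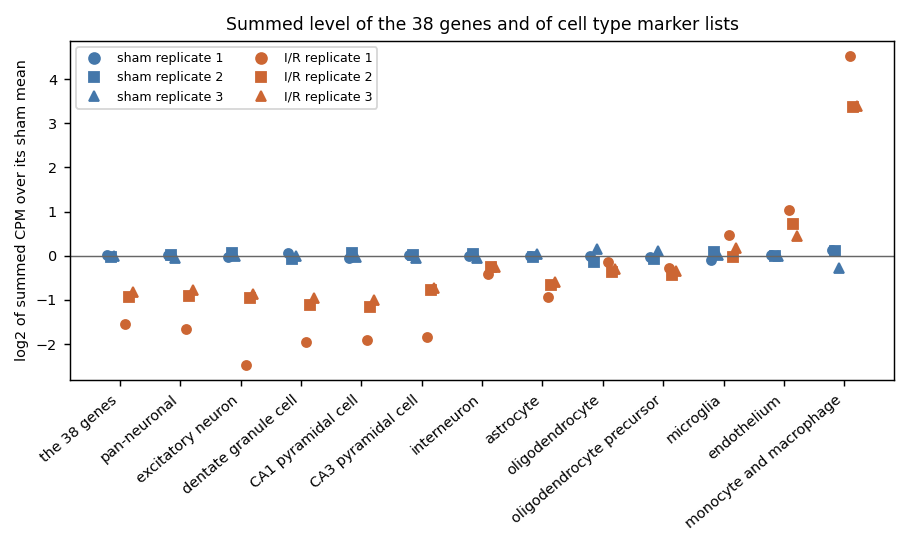
Summed CPM of the 38 genes and of 12 lists of cell type markers in each library, as log2 over the sham mean of that list. Each point is 1 library. The 38 genes lie beside the pan-neuronal list in each I/R library (34.3% and 31.4% of sham in replicate 1), the interneuron list lies nearer 0, and the monocyte and macrophage list lies highest.

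The 6 libraries had total counts of 37493042 to 44788547. On the first principal component, which held 71.4% of the variance, I/R replicate 1 lay at 97.1, the other I/R libraries at 53.6 and 43.6, and the sham libraries between -66.3 and -62.7. The median SD of the 38 genes on the log2 scale was 0.06 between sham libraries and 0.32 between I/R libraries, and over all genes with counts in every library it was 0.13 and 0.24.

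Another 52 genes of the glutamate synapse were examined beside the 38, of which 50 were tested, 34 were called lower, 1 higher and 15 were not called. Their median log2 fold change was -0.78. Of 15 other auxiliary subunits 11 were called lower. The genes that fell most were Cnih2 (-1.68 ± 0.31, SE), a cornichon that exports AMPA receptors and binds the same complexes as Cacng8, Shisa7 (-1.46 ± 0.26), Prrt1 (-1.41 ± 0.15), Iqsec2 (-1.41 ± 0.25) and Shisa6 (-1.34 ± 0.30), with adjusted p of 0.00424, 0.00361, 0.000678, 0.0034 and 0.00915. Cnih2 stood at 561, 598 and 599 CPM in sham and 93.0, 226 and 229 CPM in I/R, with replicate 1 again the lowest. On the neuronal scale it was the 1 gene of the 50 that was called lower (-0.66).

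Of 8 receptor trafficking proteins 4 were called lower, of 13 other postsynaptic density proteins 8 and of 11 postsynaptic adhesion proteins 9. The gene called higher was Grin3b, an NMDA subunit near the limit of detection, with 3, 7 and 8 counts in sham and 40, 29 and 15 in I/R (log2 fold change 2.03, SE 0.56, adjusted p = 0.0218), and that call was lost when sham replicate 1 or 2 or I/R replicate 1 or 2 was left out and with the replicate number as a block (adjusted p of 0.00834 to 0.0771 over 15 other fits). Homer1, whose short form is induced by neuronal activity, was not called. It stood at 139.7, 125 and 130.4 CPM in sham and 101, 166 and 137 CPM in I/R, so its groups overlapped (log2 fold change 0.03, SE 0.17, adjusted p = 0.891), while Homer2 and Homer3 of the same family fell, a difference between genes that was not tested. The counts do not separate the short from the long forms of Homer1.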

How the data were processed

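RNA-seq of 3 sham and 3 I/R libraries was analysed. Per the study's methods, the authors aligned reads with TopHat2 and counted them per gene with HTSeq. The submitters' processing notes name Bowtie 0.12.2 and the build mm8, but the identifiers in the table are those of the BALB/cJ annotation, although the mice were C57BL/6, so coordinates of genes are on BALB/cJ. Strand and multi-mapping settings are not given in the sources used here. The authors deposited raw counts and FPKM per library, and the FPKM carry no composition factor. Their own p-value columns were not used. Lines split in the table (4) were rejoined.

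Counts were tested with edgeR 4.0.16 (R 4.3.3) by filterByExpr, TMM and the robust quasi-likelihood F-test without covariates, with Benjamini-Hochberg adjustment over 18569 genes. The SE is the size of the log2 fold change divided by the square root of F. CPM are TMM-scaled. P-values measure only the spread between pools. Alternatives used limma 3.58.1, DESeq2 1.42.0, other scalings, filters and a choroid plexus covariate. FPKM were tested on log2(FPKM + 1).

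The 38 genes and all lists were chosen with earlier results of these data known. All 38 are named. Values in every library are given for the 2 called genes with the largest change of each role, for genes called higher, and for Gria2, Grin1 and Dlg4. Of the other synapse genes up to 5 in each direction and Homer1 are named. Beyond this rule Cacng4, Cacng5 and Cacng7 are named and Grin2c is shown with its libraries, all chosen after their values were seen. Kalrn and Ly6c2 were not analysed here, and Grm6 was below the count filter. Of the 38 genes, 28 share positions with another row, and for 4 (Homer3, Dlgap2, Cacng2 and Grin1) that row had over 1% of the gene's counts. Promoter windows were taken from RefSeq.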

Additional observations from a re-analysis of the deposited data

How the results depend on the processing

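The count of the 38 genes called lower stayed at 34, with 1 higher, with DESeq2's size factors, DESeq2's Wald test, at least 10 counts in every library, the choroid plexus covariate and, added after seeing the data, a correction for gene length. It was 31 without a count filter, 28 with library size only, 27 with limma on log2(FPKM + 1) and 24 on log2(FPKM + 0.1). Cacng2, Cacng3, Grin2d, Grik2, Grm2, Dlgap4 and Homer3 each lost their call in at least 3 of these 4 fits. At a fold change over 2 it was 17 lower and 0 higher (at an unadjusted p, 35 and 1), with 14 of the other synapse genes lower, and over all genes 2760 were called, 867 lower and 1893 higher. The cause was not tested.

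Library size only moved the median of all genes to 0.28 and that of the 38 genes to -0.61, with 2032 genes lower and 6328 higher (3702 and 4054 with TMM) and 3 other synapse genes higher. On log2(FPKM + 1) the counts were 2006, 6096 and 3 with a median of -0.62, and on log2(FPKM + 0.1) 1772 genes were lower and 3 other synapse genes higher, with medians of -0.63 and 0.26. Grik1 turned to 0.11, 0.078 and 0.092 in these 3 fits and was called in none. With at least 10 counts in every library, 0 other synapse genes were higher, since Grin3b is then not tested.

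The pan-neuronal scale left 1 of the 38 genes lower and 6 higher and 1 and 19 of the other synapse genes, with medians of 0.24 for the 38 and 1.196 for all genes. With the geometric mean, added after seeing the data, it was 5 and 2, with medians of 0.057 and 1.006 and no computed share over all genes. Fold changes that turned positive were 0.027 for Gria2, 0.53 for Gria4, 0.54 for Cacng2, 0.63 for Cacng3, 0.61 for Grin2c, 0.63 for Grin2d, 0.32 for Grin3a, 1.07 for Grik1, 0.55 for Grik2, 0.90 for Grik3, 0.26 for Grik5, 0.086 for Grid1, 0.061 for Grm2, 0.38 for Grm4, 0.32 for Grm7, 0.86 for Grm8, 0.37 for Dlg2, 0.28 for Dlg3, 0.51 for Dlgap2, 0.30 for Dlgap3, 0.61 for Dlgap4, 0.047 for Shank2 and 0.21 for Homer3.

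Leaving out 1 library gave 28 to 35 of the 38 genes lower and 1 higher, 28 to 39 other synapse genes lower and 0 to 1 higher, medians of -1.01 to -0.71, and 2426 (without sham replicate 2) to 3966 genes lower and 2904 to 4010 higher. Calls were lost for Gria2 without sham replicate 1 or 3, Cacng2 without sham replicate 1 or 2, Dlgap4 without sham replicate 2, Grik2 without I/R replicate 2, and Grik2, Grik4, Grm2 and Homer3 without any 1 sham library, and Grik3 gained one without I/R replicate 1. Homer1, not called in any of them, ranged from -0.17 to 0.20.

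The labels do not state whether replicate numbers pair the libraries. After group means were removed, same-numbered libraries correlated at -0.10, 0.06 and -0.18 and the other pairs at -0.171 to 0.267. With 3 libraries in each group these values cannot decide it. With the replicate number as a block, 34 of the 38 genes were lower and 1 higher, 6332 genes were called in all against 7756, and 35 other synapse genes were lower and 0 higher. The coefficient of variation between replicates estimated by edgeR was 0.236 in I/R and 0.125 in sham, and no gene of the 38 was under 310 counts in a library.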
